A study of Zeugodacus cucurbitae with 52 samples.

Results

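Pupae of the melon fly *Zeugodacus cucurbitae*, which do not eat, were compared with larvae and adults of ages at which the animals feed. The comparison used 28 of the 52 RNA sequencing libraries of a developmental series, namely 12 pupal libraries (1-d-old, 5-d-old and 9-d-old pupae) and 16 feeding libraries (3-d-old larvae of instar 2, 7-d-old larvae of instar 3, 5-d-old females and 5-d-old males). Each of the 7 stages had 4 libraries, and the RNA of a library was extracted from pooled whole bodies. A pool held 20 larvae at 3 d, 10 larvae at 7 d, 3 pupae, or 3 unmated females or males. All animals belonged to 1 laboratory colony collected as pupae in Hainan, with no mutation or treatment. Larvae were reared on an artificial diet of bitter gourd, corn, yeast, flour and sucrose, and adults on sucrose, yeast and honey. Feeding is a class assigned here from age. Gut content and feeding itself were not measured, and any 7-d-old larvae that had already left the food would be counted as feeding. Eggs, 1-d-old larvae and the 1-d-old and 9-d-old adults, 24 libraries of 6 stages, stayed outside the comparison and were looked at afterwards.

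In flies the larval gut secretes serine proteases, peptidases, carbohydrases and lipases into its lumen, inside a chitin-lined tube called the peritrophic matrix, and the absorbed sugars, lipids and amino acids are stored in the fat body. At pupariation feeding stops, ecdysone directs the death and digestion of most larval tissue, including the larval midgut, and the adult organs grow from imaginal cells at the expense of stored protein and fat. The adult gut is a newly built organ with its own supply of digestive enzymes. A pupa therefore differs from larvae and adults in the presence of food and in the remodelling of its tissues, and these cannot be told apart in whole bodies. Nor can fewer cells of a type be told apart from less RNA per cell.

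Values were in TPM, a measure of transcript abundance normalised for gene length and library total, and add up to the same total in every library. A gene was separated when its lowest library in one class lay above its highest library in the other, and it was called when the mean of the 3 pupal stage means and the mean of the 4 feeding stage means differed by more than 2 on the log2(TPM + 1) scale with an adjusted p under 0.05 in limma. The p-value measures the spread between pools of one stage and not the spread between stages. With the 3 and 4 stages themselves as units, the smallest 2-sided p of an exact permutation test would be 0.0571. Differences are given as pupal minus feeding on the log2(TPM + 1) scale with their standard error (SE), and levels are in TPM.

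The 28 libraries held 45.0 to 65.2 M clean reads. Under 70% of the reads mapped in 5 libraries, of which 4 were pupal, most of them from 9-d-old pupae. Reads averaged 138.5 to 138.8 nt in all 12 pupal libraries and in replicates 3 and 4 of the 7-d-old larvae, and up to 150.0 nt in the other 14 feeding libraries, so read length went with class except within the 7-d-old larvae. A gene separated over all 28 libraries is by construction separated within the shorter read class too. Stage markers matched the labels in part. Opsin Rh1, the main visual pigment, was at 1.93 TPM or less on average in larvae and in the 1-d-old and 5-d-old pupae. It was at 1196 TPM or more from the 9-d-old pupa on. Broad-complex, an early ecdysone response gene, was highest in 1-d-old pupae (3992 TPM summed over 6 genes). In 5-d-old pupae it was at 751 TPM, beside 754 TPM in 7-d-old larvae. Larval cuticle protein transcripts were not limited to larvae, with 18640 TPM in 5-d-old and 27060 TPM in 9-d-old pupae. The male marker protamine ranged from 5.05 to 760 TPM among the 5-d-old pupal pools, whose sex is not given. The libraries labelled egg, which lay outside the comparison, held larval cuticle protein transcripts at 28780 TPM (25890 to 30970 TPM, 40 genes), beside 27880 TPM in 1-d-old larvae. Muscle genes were at 34110 ± 930 TPM in these egg libraries, beside 27510 ± 983 TPM in 1-d-old larvae. For 27 of the 28 libraries the most similar library came from the same stage. The exception was replicate 3 of the 3-d-old larvae, without which 94 genes in place of 86 were separated and called higher in pupae and 202 in place of 195 lower.

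Replicate 2 of the 7-d-old larvae also stood apart, in the genes of the pupa. On a line from the mean of the other 3 larval libraries (position 0) to the mean of the 1-d-old pupae (position 1), over all genes tested, it lay at 0.132, whereas the other 7-d-old libraries lay between -0.055 and 0.0 by the same measure. It was the highest feeding library for 21 of the 86 genes separated and called higher in pupae. Without it that number was 111, and the number of genes separated and called lower was 196.

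In TPM as deposited, more genes were high than low in every pupal library. Among those that also passed the size threshold, the lower ones outnumbered the higher. Limma called 528 genes higher and 625 lower in pupae, 3.09% and 3.66% of the 17097 genes tested. All libraries were separated for 304 of 18241 genes with the pupae higher (1.67%) and for 224 with the pupae lower (1.23%). Both criteria were met by 86 genes higher (0.503%) and 195 genes lower (1.14%), and these 281 genes are described below. The call is not independent of the separation, since both used the same libraries. The median difference was 2.76 for the 86 genes and -3.87 for the 195. Over all genes tested it was 0.33 as deposited and 0.07 after scaling by median-of-ratios size factors, so TPM tended to be higher in pupae. With that scaling 43 genes were separated and called higher and 224 lower, and the share of higher genes among them went from 30.6% to 16.1%. Among called genes it went from 45.8% to 32.0%. A pseudocount of 0.1, which gives more weight to genes of low TPM, moved both shares the other way, to 61.2% of called genes (1517 higher and 962 lower) and 42.8% of those separated and called. Which direction had more called genes therefore depended on the pseudocount. With the scaling, fewer genes were separated higher than the 224 separated and called lower. Which direction had more separated genes therefore depended on the scaling.

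**Figure D1:**
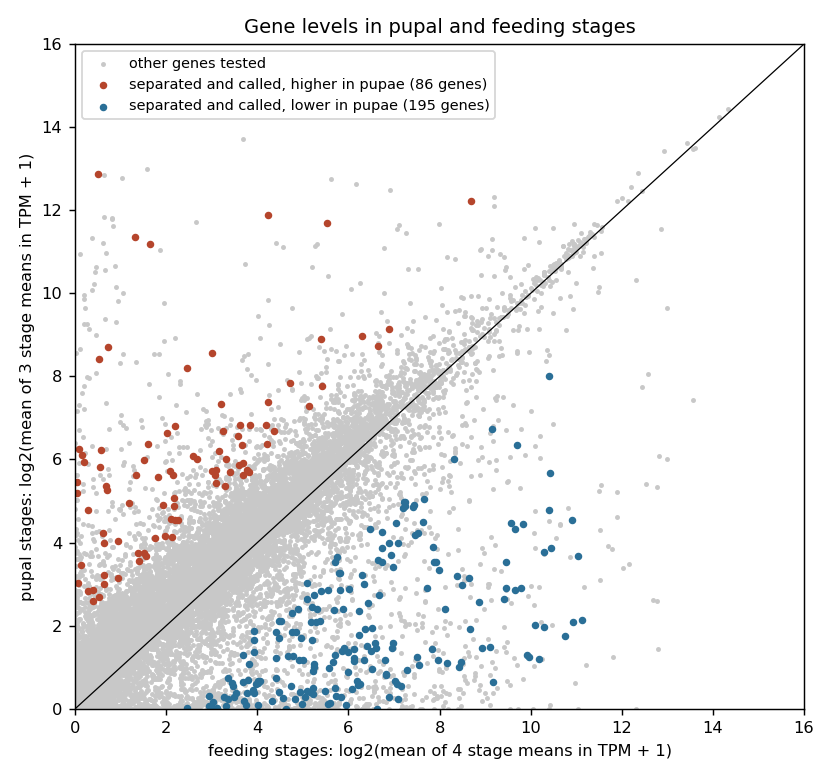
Each point is a gene tested, with the log2 of its mean level in the 4 feeding stages plus 1 (TPM, horizontal axis) against that in the 3 pupal stages (vertical axis), and the line marks equal levels. The 195 genes separated and called lower in pupae (blue) lie far below the line, mostly with under 10 TPM in pupae, and the 86 genes separated and called higher (red) include few of the genes of highest pupal level.

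The stricter question of whether a gene passed the test between each pupal stage and each feeding stage, 12 pairs in all, was met by 24 genes higher in pupae (0.14%) and 90 lower (0.526%). Of these, 18 and 86 were also separated. The lower genes together took 2.17% to 8.10% of all TPM in a feeding library and 0.0936% to 0.242% in a pupal library. Their share was 7.35% ± 1.02 (SD, n = 4) at 3 d and 5.84% ± 0.881 at 7 d in larvae, then 0.0984% ± 0.00562, 0.120% ± 0.00681 and 0.233% ± 0.00668 in 1-d-old, 5-d-old and 9-d-old pupae, and 2.36% ± 0.215 and 2.77% ± 0.113 in 5-d-old females and males. That the pupal libraries lie below the feeding ones in this sum follows from how the genes were chosen, so the values describe only its size and its order within each class.

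**Figure D2:**
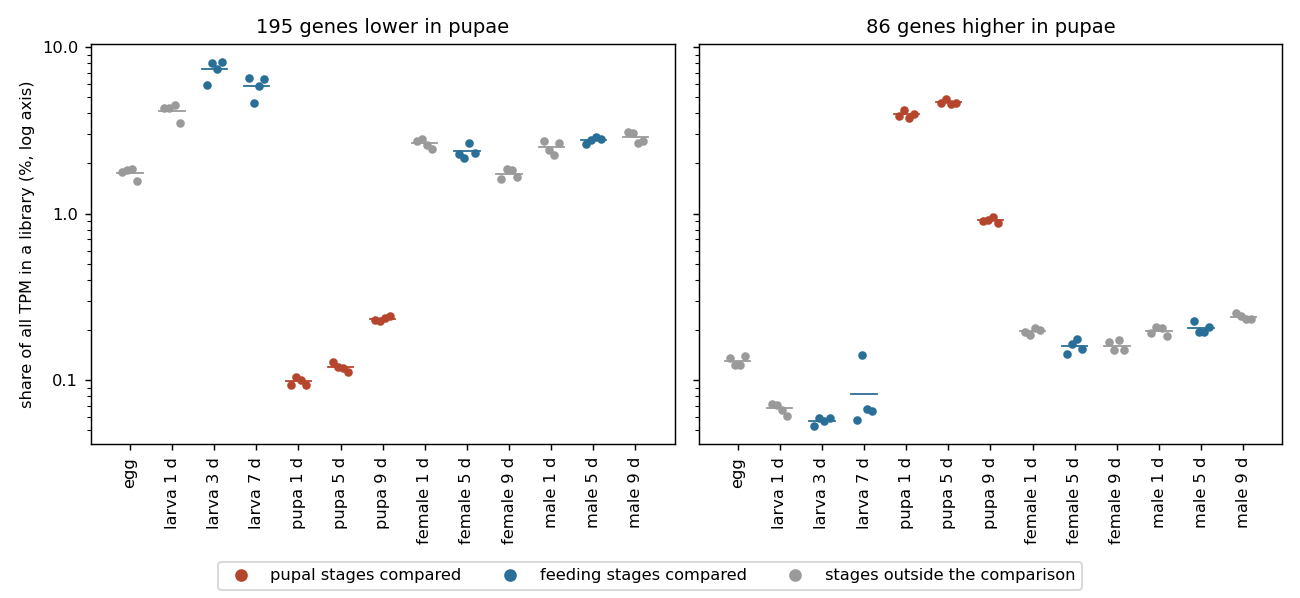
The share of all TPM in a library (percent, log axis) taken by the 195 genes separated and called lower (left) and the 86 higher (right) in pupae is shown for the 4 libraries of each of 13 stages, with a line at the stage mean. The lower genes took 0.242% or less in every pupal library and the higher genes 0.876% or more, and replicate 2 of the 7-d-old larvae, at 0.141% for the higher genes, lies above its 3 companions.

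Serine proteases of the trypsin and chymotrypsin family, which cut dietary protein in the gut lumen, formed the largest listed group of lower genes. Over all genes tested, 3.66% were called lower and 3.09% higher, and 1.14% and 0.503% were separated and called. The counts of every list and family below are to be read beside these shares. Of 97 listed serine proteases, 48 were called lower (49.5%) and 6 higher (6.19%), and 23 were separated and called lower (none higher). Their median difference was -1.94. Their summed level lay between 337 and 1091 TPM in pupal libraries and between 7308 and 37250 TPM in feeding libraries. By stage it was 31850 ± 6956 TPM (SD, n = 4) at 3 d and 22480 ± 3545 TPM at 7 d in larvae, 881 ± 102, 432 ± 63.4 and 1004 ± 85.2 TPM in 1-d-old, 5-d-old and 9-d-old pupae, and 8095 ± 769 and 8643 ± 255 TPM in 5-d-old females and males. The lowest feeding library was thus above the highest pupal library for the group as a whole.

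On the log2(TPM + 1) scale the widest gap of any named gene belonged to a protease of this family, serine proteases 1/2-like (gene751, LOC105213753). It ranged from 1.20 to 9.15 TPM over the pupal libraries (median 3.23) and from 519 to 5213 TPM over the feeding libraries (median 1734), so the lowest feeding library exceeded the highest pupal one 56.7-fold. The difference was -8.50 (SE 0.14, adjusted p = 7.9e-39 by limma). The gene was called lower in all 12 pairs of stages, with larvae at 4361 ± 1096 TPM (3-d-old) and 3472 ± 551 TPM (7-d-old) and adults at 576 ± 92.2 TPM (females) and 569 ± 48.5 TPM (males).

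The order of larvae and adults differed between members. Trypsin beta-like (gene5041, LOC105211269) was at 0.09 to 4.58 TPM in pupae (median 1.18) and at 100 to 2669 TPM in feeding animals (median 777), with a difference of -8.10 (SE 0.18, limma adjusted p = 5.34e-34). Unlike gene751, its level was highest in adults, at 2174 ± 468 TPM in males and 1461 ± 180 TPM in females against 228 ± 85.0 and 146 ± 53.3 TPM in 3-d-old and 7-d-old larvae. A further copy of serine proteases 1/2-like, gene770, was at 325 to 1911 TPM in feeding and 1.66 to 22.7 TPM in pupal libraries, a difference of -6.78 (SE 0.21). In all, 13 of 19 genes with that product name were called lower, none higher, and 7 were separated and called. Whether such copies share reads was not examined, and a level of one copy may include reads of another.

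Some proteases went against the group and were chosen after their values were seen. Trypsin alpha-like (gene10227) was called higher in pupae (difference 4.17, SE 0.19, limma adjusted p = 6.88e-23) but was not separated. It stood at 469 ± 80.4 TPM in 1-d-old pupae, 105 ± 16.7 TPM in 5-d-old and 47.4 ± 4.34 TPM in 9-d-old pupae, against 89.2 ± 45.1 TPM in 7-d-old larvae and 1.77 TPM or less on average in 5-d-old adults. Chymotrypsin-2 (gene2410) reached 150 TPM in its highest pupal library, whereas the pupal median was 0.17 TPM and no feeding library exceeded 0.11 TPM. Trypsin-1 (gene8603) was likewise uneven, with a pupal range of 0.0 to 379 TPM. Its feeding libraries ran up to 34.7 TPM, so the classes overlapped.

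Peptidases that trim the products of trypsin showed lower members in pupae but no shift of the list. Of 55 exopeptidases 10 were called lower (18.2%), 3 higher (5.45%) and 7 separated and called lower, around a median difference of 0.26. Zinc carboxypeptidase A 1-like (gene9576) was at 0.36 to 5.02 TPM in pupae (median 1.19) and 104 to 1463 TPM in feeding libraries (median 298), with a difference of -6.99 (SE 0.14). Aminopeptidase N (gene10125), a brush border enzyme in insect midgut, was at 0.06 to 56.0 TPM in pupae and 73.3 to 556 TPM in feeding libraries, with a difference of -5.26 (SE 0.20). Its pupal values were not alike: 1.58 ± 2.75 TPM at 1 d, 0.945 ± 0.406 TPM at 5 d and 38.9 ± 17.4 TPM at 9 d, so that the oldest pupae came within 1.31-fold of the lowest adult library. The neighbouring aminopeptidase N-like gene10127 had a difference of -5.61 (SE 0.13).

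Acid proteases and alkaline phosphatases were looked at after their values were seen. Genes named lysosomal aspartic protease or lysosomal aspartic protease-like, relatives of cathepsin D, were called lower in 11 of 12 cases and separated in 6. For gene9942 the pupal range was 1.73 to 8.02 TPM and the feeding range 40.7 to 590 TPM, a difference of -5.38 (SE 0.16). Alkaline phosphatases, of which membrane-bound forms mark gut brush borders in insects, had 5 of 13 members called and separated lower and 1 called higher. Over all genes tested, 3.66% were called lower and 3.09% higher. The list of lysosomal proteases, 6 genes, had 1 member called lower and none higher, with a median difference of 0.41. Its summed level was highest in 1-d-old pupae, at 2856 ± 173 TPM.

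Enzymes that split starch and sugars set adults, rather than larvae, apart from pupae. Of 19 such genes 9 were called lower (47.4%) and none higher, with a median difference of -1.69. Their summed level was 441 ± 41.6, 289 ± 33.6 and 491 ± 70.6 TPM (SD, n = 4) in 1-d-old, 5-d-old and 9-d-old pupae, 377 ± 47.3 TPM in 7-d-old larvae, 3967 ± 208 TPM in males and 5876 ± 588 TPM in females. The 3-d-old larvae were spread from 319 to 2287 TPM and overlapped the pupae. Only 2 members, maltase A1-like (gene3660) and maltase A2-like (gene7005), were separated and called, and the former ranged from 1.79 to 188 TPM in feeding and up to 0.78 TPM in pupal libraries.

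Lipases had a median difference of 0.03, and yet held one of the widest gaps. Of 61 members 10 were called lower (16.4%) and 7 separated and called lower. Only 2 were called higher (3.28%), near the 3.09% of all genes tested. Phospholipase A1-like (gene8268, LOC105214716) ranged from 0.17 to 4.40 TPM in pupae (median 0.89) and from 146 to 3648 TPM in feeding libraries (median 850), with a difference of -8.31 (SE 0.22, limma adjusted p = 1.8e-31). It was at 2483 ± 1026 TPM at 3 d and 1695 ± 289 TPM at 7 d in larvae, and 240 ± 65.5 TPM in females and 216 ± 79.6 TPM in males. A second phospholipase A1-like gene, gene9121, gave -6.70 (SE 0.22). Against them, phospholipase A2 (gene10180), chosen after its values were seen, was called higher in pupae, at 40.8 to 895 TPM against 0.45 to 63.7 TPM, without being separated.

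**Figure D3:**
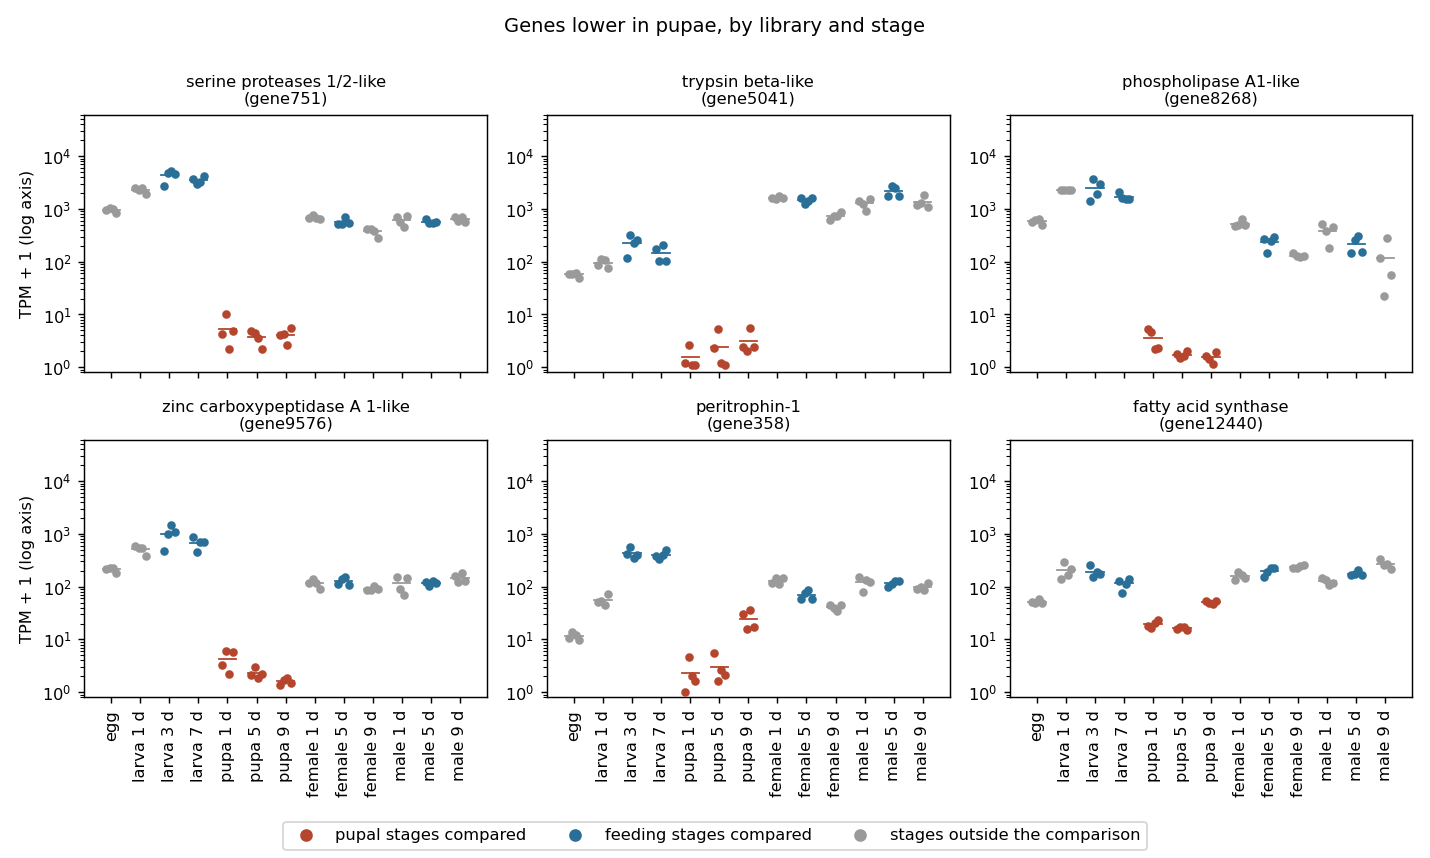
Each panel shows TPM + 1 (log axis) of one gene in the 4 libraries of each of 13 stages, with a line at the stage mean, for pupal stages (red), the feeding stages compared (blue) and the stages outside the comparison (grey). Serine proteases 1/2-like and phospholipase A1-like are highest in larvae, trypsin beta-like in adults, and peritrophin-1 and fatty acid synthase approach the feeding levels in 9-d-old pupae.

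The lining of the gut and the uptake of its products gave smaller counts. Of 69 peritrophic matrix and chitin-binding proteins 18 were called lower (26.1%), 3 higher (4.35%) and 2 separated and called lower. The median difference was 0.33. Peritrophin-1 (gene358), a structural protein of that matrix, was at 428 ± 88.1 TPM at 3 d and 404 ± 69.9 TPM at 7 d in larvae. It was then at 1.34 ± 1.64 TPM in 1-d-old pupae and 23.9 ± 10.2 TPM in 9-d-old pupae, against 68.5 ± 14.3 TPM in females and 115 ± 13.5 TPM in males. Of 70 transporters of sugars and amino acids 10 were called lower (14.3%), none higher, and 3 were separated. All 3 were annotated as facilitated trehalose transporter Tret1-like (trehalose is the blood sugar of insects). The strongest, gene5261, was at 0.0 to 1.51 TPM in pupae and 5.98 to 127 TPM in feeding libraries (difference -4.88, SE 0.15). Among 25 subunits of the vacuolar ATPase, the proton pump that energises gut transport, a single 116 kDa subunit a isoform (gene3321) was separated and called (-3.29, SE 0.13), with the other 24 below the threshold. Genes annotated as synaptic vesicle glycoprotein 2, transporters of a large family, were called lower in 7 of 17 cases and separated in 5, a family chosen after its values were seen.

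Genes acting on bacteria split in direction. Lysozymes, some of which digest bacteria in the fly gut, were called lower in 7 (43.8%) and higher in 4 (25.0%) of 16 cases. Their summed level was at 1075 to 71610 TPM in feeding libraries and 396 to 2009 TPM in pupae, which overlap. The single separated member, lysozyme gene1940, was higher in pupae (17.9 to 46.5 TPM against 0.32 to 10.7 TPM, difference 3.26, SE 0.10), and lysozyme 1-like gene5010, chosen after its values were seen, was called higher at a pupal range of 16.7 to 1033 TPM. Peptidoglycan-recognition proteins, chosen after their values were seen, had 5 of 11 members called lower and 3 separated, and the SC2-like gene4526 was at 0.0 to 3.48 TPM in pupae against 29.3 to 599 TPM (difference -5.88, SE 0.22). Of 24 antimicrobial peptide genes 2 were called lower (8.33%) and none was separated and called.

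Cytochromes P450, which oxidise hormones as well as foreign compounds, and enzymes that conjugate foreign compounds had called members in each direction. The P450 list was not split by substrate. It had 10 of 94 members called lower and 10 higher (10.6% each, beside 3.66% and 3.09% of all genes tested). All 3 separated and called members were lower in pupae. The clearest, P450 6a23 (gene12881), was at 0.0 to 1.77 TPM in pupae and 20.8 to 133 TPM in feeding libraries, with a difference of -5.54 (SE 0.11). Of 53 conjugating enzymes 8 were called lower (15.1%) and 1 higher (1.89%). Glutathione S-transferase theta-1 (gene6526, -2.17, SE 0.08) was among the lower ones. Juvenile hormone epoxide hydrolase 1 (gene1999), an enzyme that inactivates juvenile hormone and was chosen after its values were seen, was at 0.33 to 4.91 TPM in pupae and 16.7 to 479 TPM in feeding libraries.

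Several lists of central metabolism and nutrient sensing gave no call. None of the 18 members of the insulin and TOR pathways was called, nor any of 21 glycolytic, 74 cytosolic ribosomal, 67 oxidative phosphorylation or 79 DNA replication and cell cycle genes, with median differences of 0.34, -0.22, 0.15, -0.14 and 0.22. With scaling these became 0.03, -0.71, -0.34, -0.63 and -0.17, so the signs of the ribosomal and the cell cycle medians depended on it. Such a count says only that no member passed a difference of 2, and a class difference averages over stages. Over all genes tested, 3.66% were called lower and 3.09% higher, so a small list can hold no call at those shares. Oxidative phosphorylation genes summed to 10950 ± 260, 22060 ± 279 and 47390 ± 1510 TPM in 1-d-old, 5-d-old and 9-d-old pupae. Glycolytic genes summed to 2501 ± 91.1, 4438 ± 43.3 and 5425 ± 175 TPM there. Feeding libraries held 19720 to 36630 TPM and 4046 to 8043 TPM of these 2 lists. Of 13 fat synthesis genes 2 were called lower (15.4%) and none higher. Of 18 fatty acid oxidation genes 2 were called lower (11.1%) and none higher. In fat synthesis, fatty acid synthase (gene12440) was separated and called, at 14.2 to 53.1 TPM in pupae against 75.1 to 255 TPM in feeding libraries (difference -2.72, SE 0.09). Its levels were 18.5 ± 3.02, 15.2 ± 0.896 and 49.5 ± 3.32 TPM in 1-d-old, 5-d-old and 9-d-old pupae. Argininosuccinate synthase (gene2503, -3.22) and argininosuccinate lyase (gene2454, -3.35), neighbouring enzymes of arginine metabolism that were chosen after their values were seen, were both among the 195 genes.

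**Figure D4:**
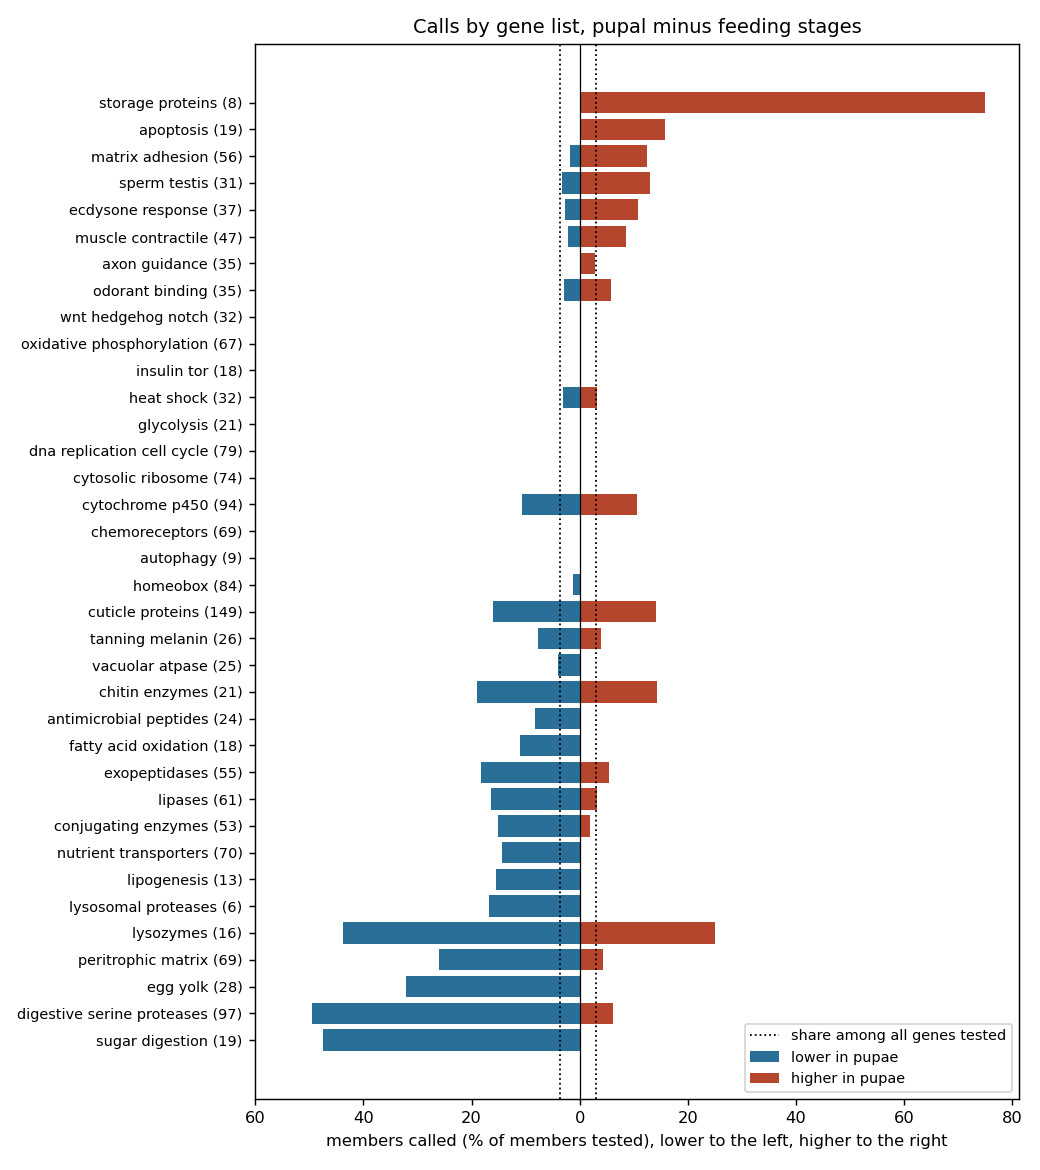
Bars give, for 36 gene lists, the share of members tested (number in parentheses) that limma called lower in pupae (left, blue) or higher (right, red), in percent, and the dotted lines mark the 3.66% and 3.09% called among all genes tested. Serine proteases (49.5% lower) and sugar-digesting enzymes (47.4% lower) have the longest bars to the left and storage proteins (6 of 8 higher) to the right, while lists such as glycolysis and the cytosolic ribosome have no bar.

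Of the 86 genes higher in pupae, the widest gap on the log2(TPM + 1) scale belonged to a secreted protein with a fibrinogen-related domain. This gene, ficolin-1-like (gene1905, LOC105221223), was at 457 to 5865 TPM in pupae (median 1961) and 0.04 to 22.8 TPM in feeding libraries (median 0.72). The difference was 9.70 (SE 0.22, limma adjusted p = 1.21e-33), the largest of the named genes. Its level was 4430 ± 1078, 2081 ± 474 and 508 ± 50.4 TPM in 1-d-old, 5-d-old and 9-d-old pupae, and its highest feeding library was replicate 2 of the 7-d-old larvae. The next gap was that of the uncharacterized gene4105, at 55.8 to 1149 TPM in pupae and up to 3.44 TPM in feeding libraries (difference 7.58, SE 0.21). Fibrinogen-like protein A (gene3004) had the same order of stages, at 1040 ± 173, 139 ± 12.9 and 62.0 ± 16.7 TPM in pupae against at most 2.40 TPM in a feeding library (difference 7.06, SE 0.12). Angiopoietin-related protein 1-like (gene11358) was at 5.94 to 77.8 TPM in pupae and no more than 0.10 TPM in feeding animals. Proteins of this class bind sugars, and some act in insect immunity. Over 55 tested genes of the class, a list made after the values were seen, 13 were called higher (23.6%) and 2 lower (3.64%). The shares over all genes tested were 3.09% and 3.66%. Of the 55 genes 3 were separated and called, and the median was 0.56, so the separation belonged to a few members.

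Storage proteins showed how a class mean can differ from the stages in it. Hexamerins, which are made by the last larval instar and consumed in the pupa, were listed with their fat-body receptor. Of 8 such genes 6 were called higher in pupae and none lower, but the summed level was highest in 7-d-old larvae, at 75860 ± 9081 TPM (SD, n = 4). It was 141 ± 108 TPM in 3-d-old larvae, 31110 ± 2030, 16900 ± 1171 and 8978 ± 796 TPM in 1-d-old, 5-d-old and 9-d-old pupae, and 2637 ± 1504 and 3679 ± 789 TPM in 5-d-old females and males. Larval serum protein 1 beta chain-like (gene343), chosen after its values were seen, was called higher (3.13, SE 0.23) although 7-d-old larvae held 32420 ± 4587 TPM against 684 ± 134, 1446 ± 186 and 258 ± 78.9 TPM in the 3 pupal stages. The call rests on the low levels of the other feeding stages, 25.2 TPM or less on average.

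Fat-body protein 1 (gene12529), in *Drosophila* the receptor that returns larval serum proteins to the fat body, was the one storage gene separated and called. It was at 9767 ± 463 TPM in 1-d-old, 1112 ± 133 TPM in 5-d-old and 446 ± 31.5 TPM in 9-d-old pupae (difference 8.86, SE 0.39, limma adjusted p = 1.51e-23). In feeding animals its median was 2.80 TPM and its highest value 251 TPM, again in replicate 2 of the 7-d-old larvae, where the other 3 replicates were at 0.04 to 5.53 TPM. The short-chain dehydrogenase gene7577 (dehydrogenase/reductase SDR family member 11-like) was distributed alike, at 7815 ± 1296, 1427 ± 167 and 636 ± 148 TPM in pupae and 160 TPM in that larval library, with 8.26 to 8.98 TPM in the other 3 (difference 6.72, SE 0.26). In males it was at 113 ± 22.6 TPM.

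A few genes of cell death were separated and called higher in pupae. Caspase Nc (gene4885), the initiator caspase of *Drosophila* called Dronc, was at 47.2 to 178 TPM in pupae (median 97.6) and 5.80 to 35.6 TPM in feeding libraries (median 22.4), with a difference of 2.35 (SE 0.07). Its stages were at 158 ± 13.4, 51.9 ± 3.18 and 96.8 ± 2.96 TPM in pupae of 1 d, 5 d and 9 d, so the lowest of them was the middle one. A further caspase (gene11673) gave 2.31 (SE 0.09). With scaling both fell under the threshold, at 1.89 and 1.87. Outside the comparison, all 4 libraries of 9-d-old females lay on the pupal side of the middle of the gap for gene4885. All 4 egg libraries did so for gene11673. The remaining outside stages lay on the feeding side for both genes. The summed level of the 19 apoptosis genes was 995 ± 53.5 TPM in 9-d-old females, beside 854 ± 18.1 TPM in 1-d-old pupae. Of 19 apoptosis genes 3 were called higher (15.8%, beside 3.09% of all genes tested), of which 2 were separated, and none lower. Of 9 autophagy genes none was called (median 0.84), and so small a list can hold no call at the share of all genes. Chosen after their values were seen, cell death abnormality protein 1 (gene5237), which in nematodes is the engulfment receptor for dead cells, was at 30.6 to 806 TPM against 0.0 to 23.0 TPM, and deoxyribonuclease-2-beta (gene8198), a lysosomal nuclease, at 7.41 to 143 TPM against 0.38 to 5.37 TPM.

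Matrix genes had 7 of 56 members called higher (12.5%), 1 lower (1.79%) and 3 separated and called higher, and a median of 0.99. Matrix metalloproteinase-14 (gene13006), a cell surface protease that cuts matrix proteins, was at 75.8 to 514 TPM in pupae (median 115) and 8.33 to 43.4 TPM in feeding libraries (difference 2.79, SE 0.10). The secreted protease ADAMTS 1 (gene2194; a disintegrin and metalloproteinase with thrombospondin motifs) gave 3.39 (SE 0.09) and collagen alpha-1(XVIII) (gene867), a basement membrane collagen, 2.34 (SE 0.06). For gene2194 every library of eggs, 1-d-old females and 1-d-old males lay on the pupal side of the middle of the gap. For gene867 every egg library did. Mical (gene1319), an enzyme that oxidises and disassembles actin filaments and acts in axon guidance and dendrite pruning in *Drosophila*, was at 58.5 to 154 TPM against 3.92 to 16.9 TPM (difference 3.04, SE 0.07).

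Hormone response and cuticle genes each had 1 member that was separated and called, both with levels that varied among the pupal ages. Of 37 ecdysone response genes 4 were called higher (10.8%) and 1 lower (2.7%). The nuclear receptor gene ecdysone-induced protein 78C (gene1483) alone was separated and called (4.16, SE 0.15). It was at 50.4 ± 12.4, 66.4 ± 4.37 and 4.37 ± 1.01 TPM in 1-d-old, 5-d-old and 9-d-old pupae, the last close to the highest feeding library at 2.83 TPM. Every library of 1-d-old larvae, outside the comparison, lay on the pupal side of the middle of its gap. Of 149 cuticle proteins 21 were called higher (14.1%) and 24 lower (16.1%). Cuticle protein 16.5 (gene8029), the only one separated and called, was at 4.99 ± 5.38, 20770 ± 954 and 1537 ± 168 TPM in pupae and at no more than 1.57 TPM in feeding libraries (difference 8.63, SE 0.20). Its gap rested on the 1-d-old pupae, whose lowest library was at 1.88 TPM. The gene was not limited to pupae, with 20.4 to 32.3 TPM in 1-d-old females and 3.40 to 7.93 TPM in 1-d-old males. All 4 libraries of each of these stages lay on the pupal side of the middle of the gap. Of 21 chitin enzymes 3 were called higher (14.3%) and 4 lower (19.0%), none separated.

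Among remaining genes with a product, leucine-rich repeat extensin-like protein 5 (gene1445) was at 13.1 to 150 TPM in pupae and 0.68 TPM or less in feeding libraries, with its highest mean in 5-d-old pupae (103 ± 43.2 TPM). Sarcocystatin-A-like (gene6099), named for a protease inhibitor of flesh flies and chosen after its values were seen, was at 1676 to 8052 TPM against 34.3 to 946 TPM (difference 4.27, SE 0.08). No product was given for MSTRG.9624 (11.4 to 205 TPM in pupae, at most 0.42 TPM in feeding libraries) or, in the other direction, for MSTRG.4217 (0.0 to 3.10 TPM against 122 to 720 TPM). Only 60 of the 86 genes and 144 of the 195 had an informative product.

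**Figure D5:**
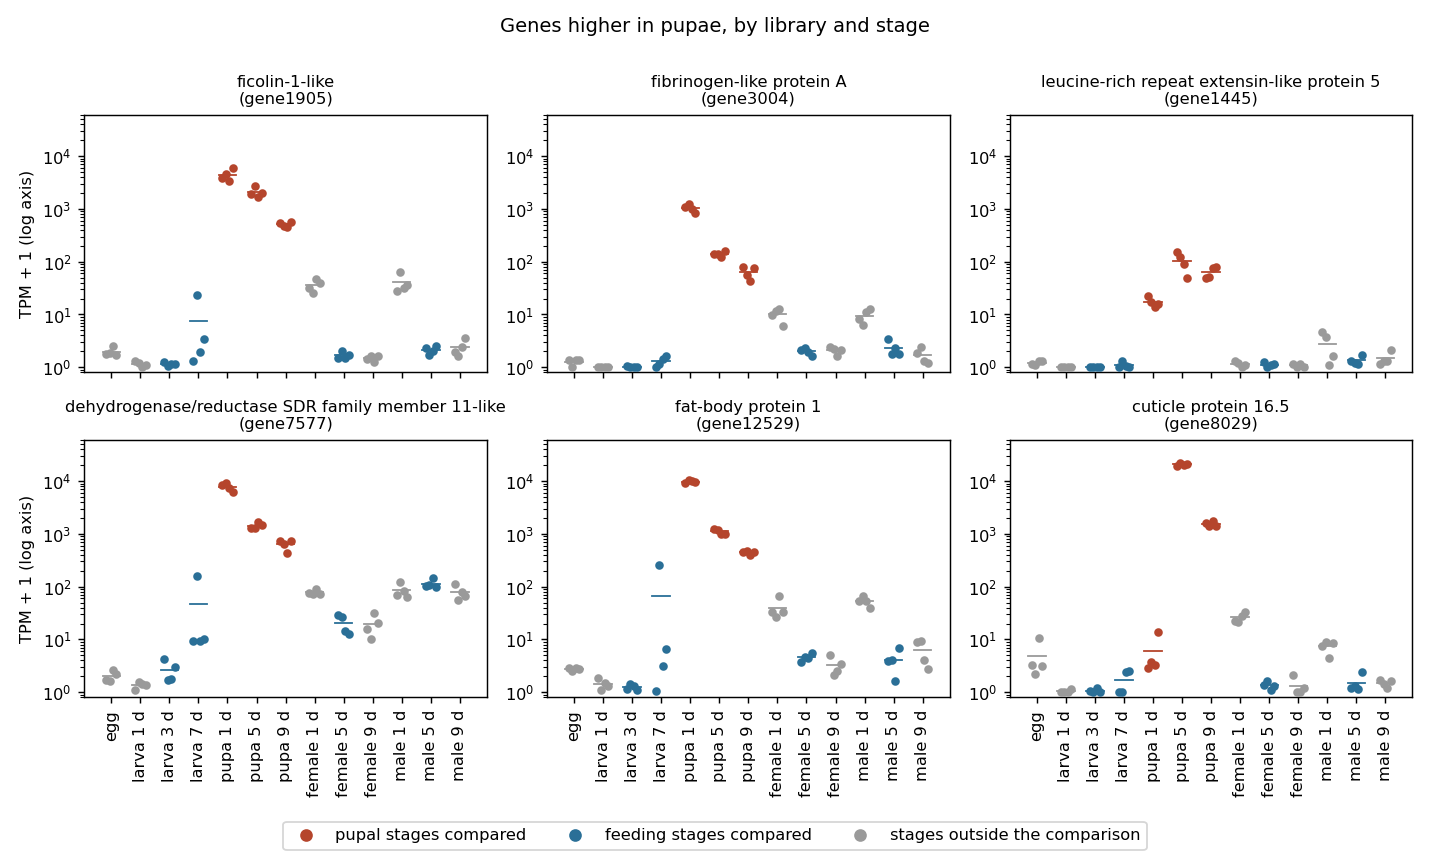
Each panel shows TPM + 1 (log axis) of one gene in the 4 libraries of each of 13 stages, with a line at the stage mean, for pupal stages (red), the feeding stages compared (blue) and the stages outside the comparison (grey). Ficolin-1-like, fibrinogen-like protein A, the short-chain dehydrogenase and fat-body protein 1 fall from 1-d-old to 9-d-old pupae, cuticle protein 16.5 peaks in 5-d-old pupae, and a single 7-d-old larval library lies above its companions in 3 panels.

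The stage that came nearest to the other class was the oldest pupa. Most of its libraries also had a low share of mapped reads, as given above, and whether mapping contributed was not tested. Among the 195 lower genes the highest pupal mean was that of 9-d-old pupae in 119, of 1-d-old pupae in 62 and of 5-d-old pupae in 14, and the highest feeding mean was that of 3-d-old larvae in 95, 5-d-old males in 49, 7-d-old larvae in 37 and 5-d-old females in 14. Among the 86 higher genes the peak was in 1-d-old pupae in 55, in 5-d-old pupae in 28 and in 9-d-old pupae in 3, the lowest pupal mean was that of 9-d-old pupae in 53, and the highest feeding mean was that of 5-d-old males in 51. Without the 9-d-old pupae 336 genes were separated and called higher and 354 lower. Without the 5-d-old males 212 were higher, and without the 1-d-old pupae 235.

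The 24 libraries outside the comparison were then placed on either side of the midpoint of each gap. They took no part in the separation or in the class difference, but did enter the filter and the limma fit. Of the 195 lower genes, all 4 libraries lay on the feeding side in 172 genes for 1-d-old larvae, 152 for 9-d-old females, 189 for 9-d-old males, 171 for 1-d-old females and 169 for 1-d-old males, and 130 genes did so in 1-d-old larvae and 9-d-old adults of both sexes together. Of the 86 higher genes the numbers were 73, 74, 75, 60 and 63, and 55 together. In 1-d-old adults the lower genes took a share close to that at 5 d, with 2.64% ± 0.156 (females) and 2.51% ± 0.232 (males) of TPM.

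The libraries labelled egg, described as collected within 8 h of laying, were on the feeding side as well for most genes: 158 of the 195 lower genes and 61 of the 86 higher genes, against 25 and 14 on the pupal side. The 195 genes took 1.75% ± 0.128 of TPM in these libraries, and the digestive serine proteases summed to 7181 ± 772 TPM there. Serine proteases 1/2-like (gene751) was at 957 ± 75.7 TPM and phospholipase A1-like (gene8268) at 582 ± 66.4 TPM, above their levels in 5-d-old adults, whereas gene770 was at 3.36 ± 1.79 TPM, within its pupal range. When these libraries were tested in limma against 1-d-old larvae and 9-d-old adults, 32 of the 195 genes (16.4%) were lower in them and 9 (4.62%) higher, beside 4.57% and 3.88% of all genes tested, with a median difference of -0.37 against 0.01. Of the 86 genes 2 (2.33%) were lower and 5 (5.81%) higher. As given above, these libraries also held larval cuticle and muscle transcripts at levels near those of 1-d-old larvae, whose part in this result was not tested.

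Some of the lower genes lay side by side. In the RefSeq order of the melon fly assembly, used for neighbourhood only, 34 of the 176 lower genes that could be placed (19.3%) had a lower gene as the adjacent protein-coding gene, in 14 runs. None of the 78 placed higher genes had a higher neighbour. The share expected for so many genes in any order was not worked out, so these counts give no contrast between the directions. The longest run held 5 genes of no known product (gene5265 to gene5269), of which gene5266, chosen after its values were seen, was at 1.10 to 8.13 TPM in pupae and 162 to 3214 TPM in feeding libraries. A run of 4 held proteases alone (gene762, gene761, gene759 and gene758), and another run held 3 genes at gene5043 to gene5045, near trypsin beta-like in numbering. Copies in a row are alike in name, and shared reads would move them together.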

How the data were processed

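Total RNA of pooled whole bodies was sequenced by the authors, who trimmed the reads, aligned them with HISAT2 2.1.0, added newly assembled genes and deposited TPM per gene and library from RSEM 1.3.1. The genome build is not given in the sources used here. TPM were not scaled further between libraries, and the depth behind a single value is unknown, since counts per gene were not used here. The deposited table also has another column, gene length. Log2(TPM + 1) of the 17097 of 18241 genes above 0.1 TPM in at least 4 libraries was fitted with limma 3.58.1 (trend, robust) in R 4.3.3, with 1 mean per stage over 52 libraries. P-values were adjusted by the Benjamini and Hochberg method over all genes tested, and calls needed an adjusted p under 0.05 and a difference beyond 2, the thresholds of the study. Fits were tested on simulated data. Tables and plots were made in Python 3.11.15 with pandas 2.3.3 and matplotlib 3.10.9.

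The comparison, its members and the 36 gene lists were chosen with earlier results of these data known. Patterns in 4 lists that had caught wrong products were corrected, and a list of fibrinogen-related genes was added, after values were seen. Named genes were the 12 per direction with the widest gap (separated, called, at least 10 TPM, informative product), the 3 largest differences per list, and the 2 widest gaps without a product per direction, of which part is given in the text, and further genes are said to be chosen afterwards. Gene names and products are those of the table. For neighbours, 12508 of 13747 symbols matched RefSeq. No sequence was used here. Alternatives covered the pseudocount, filter, scaling, thresholds, stages, mapping, read length, replicate block and leaving out each library. The egg comparison and leaving out 2 libraries together were added after seeing the data.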

Additional observations from a re-analysis of the deposited data

Results flagged for a closer look

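Values far from the other 3 replicates of their stage by Dixon's criterion were found in 18 of 145 groups of 4 libraries examined. The criterion flags about 1 in 20 groups of independent, normally distributed values. TPM near 0 are not so distributed, and the genes share libraries, so the 18 cannot be set against that rate. Replicate 2 of the 7-d-old larvae accounted for 5 of them, each on the side of the pupae: ficolin-1-like (gene1905) at 22.8 TPM against 0.30 to 2.43 TPM, the short-chain dehydrogenase gene7577 at 160.4 TPM against 8.26 to 8.98 TPM, fat-body protein 1 (gene12529) at 251.3 TPM against 0.04 to 5.53 TPM, ecdysone-induced protein 78C (gene1483) at 1.88 TPM against 0.0 to 0.05 TPM, and the summed share of the 86 higher genes at 0.1414% against 0.0576% to 0.0672%. These values share 1 library and are not independent. The age or state of the 10 larvae in that pool relative to the others was not tested.

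The remaining values were spread over stages. In 1-d-old pupae, trypsin beta-like (gene5041) was at 1.70 TPM in replicate 2 (others 0.09 to 0.22), and in replicate 4 aminopeptidase N (gene10125) was at 5.70 TPM (0.06 to 0.31), cuticle protein 16.5 (gene8029) at 13.1 TPM (1.88 to 2.71) and ecdysone-induced protein 78C (gene1483) at 31.9 TPM (55.2 to 57.6). In 5-d-old pupae, caspase Nc (gene4885) was at 47.2 TPM in replicate 3 (53.0 to 53.9), and in 9-d-old pupae gene5041 was at 4.58 TPM in replicate 3 (1.06 to 1.45). In larvae, phospholipase A1-like (gene8268) was at 2126 TPM in replicate 1 at 7 d (1524 to 1585) and fibrinogen-like protein A (gene3004) at 0.04 TPM in replicate 1 at 3 d (0.0 in the others). In 5-d-old females, serine proteases 1/2-like (gene751) was at 713 TPM in replicate 3 (519 to 546) and trypsin alpha-like (gene10227) at 1.31 TPM in replicate 2 (0.03 to 0.23). In 5-d-old males, fatty acid synthase (gene12440) was at 206 TPM in replicate 3 (165 to 170), gene8029 at 1.42 TPM in replicate 4 (0.16 to 0.34) and gene10227 at 6.53 TPM in replicate 1 (0.14 to 0.28).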

How the results depend on the processing

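The 71 named genes were recomputed with the pseudocount, the scaling, the replicate block and each library left out. None changed sign there, and 3, one of them chosen after its values were seen, fell under the threshold of 2 with scaling, caspase Nc (1.89), caspase gene11673 (1.87) and glucosamine-6-phosphate isomerase gene11616 (1.60, the one so chosen). Counts of genes depended more on the settings. A pseudocount of 0.1 gave 1517 called higher, 962 called lower and 154 separated and called higher. Scaling gave 43 separated and called higher and 174 separated higher. A threshold of 1 gave 2619 higher, 1396 lower, 269 separated and called higher and 271 in all 12 pairs (114 at a threshold of 2). A gap of at least 1 left 23 separated higher and 94 lower. With 1-d-old larvae and 9-d-old adults added to the feeding stages, 140 genes were separated higher. Leaving out stages raised counts: without 5-d-old females 715 separated higher, without 5-d-old males 1007 called, 212 separated and called and 675 separated higher, without 1-d-old pupae 868 called, 235 separated and called and 812 separated higher and 184 in all pairs left, without 5-d-old pupae 490 separated higher, and without 9-d-old pupae 336 separated and called higher, 354 separated and called lower, 264 in all pairs left, 959 separated higher and 454 separated lower. Libraries mapped at 70% or more, which leaves out most libraries of 9-d-old pupae, gave 530 separated higher. The shorter read length alone, which leaves 2 larval libraries against the pupae, gave 1746 called higher, 1159 and 631 separated and called higher and lower, 793 in all pairs left, and 6679 and 952 separated higher and lower. Fewer libraries make separation easier by construction.

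Leaving out each library in turn gave 520 to 561 called higher, 621 to 639 called lower, 85 to 111 separated and called higher, 194 to 204 separated and called lower, 109 to 117 in all pairs, 304 to 341 separated higher and 224 to 236 separated lower. The replicate numbers did not pair the samples: the deviations of same-numbered libraries had a median correlation of 0.00367 (-0.133 to 0.173 over 84 pairs of libraries), and 10 of 28 libraries correlated best with their own number. With the replicate block 528 genes were called higher, 625 lower, 86 and 195 separated and called and 113 in all pairs. Depth per value is unknown, so differences among genes of a few TPM are the least certain.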

Other observations

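Genes annotated as persephone-like serine proteases, in *Drosophila* a protease of the blood that senses infection, were looked at after their values were seen. Of 13 such genes 4 were called higher in pupae and none lower, beside 3.09% and 3.66% of all genes tested, and 2 were separated and called (gene2736, 3.97, and gene8650, 3.90). Odorant-binding proteins, which carry small hydrophobic molecules, had 2 of 35 members called higher (5.71%) and 1 lower (2.86%). Their summed level lay between 4784 and 13320 TPM in pupae and between 2226 and 5898 TPM in feeding libraries. Of 69 chemoreceptor genes tested none was called. Of 35 axon guidance genes 1 was called higher (2.86%, near the 3.09% of all genes) and none lower. Their median difference was 0.91 (0.69 with scaling). Of 28 yolk and ovary genes 9 were called lower (32.1%), and none was separated and called. Of 31 sperm genes 4 were called higher (12.9%) and 1 lower (3.23%), and none was separated and called.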
